A study of Mus musculus with 9 samples.

Results

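The Kif2a knockout line KO2 was set against wild-type cells (WT) across all genes with enough expression to be tested. A gene was a member where its mean value over the 9 libraries of the deposited table was at least 10, and 10238 of 15526 genes met that rule. The cells were mouse embryonic stem cells (mESCs) of a 129 background, grown with no treatment in any group. KO2 (titled E5) and a second line, KO1 (titled C5), were edited independently so that Kif2a was removed, and WT cells were not edited. Each group had 3 libraries of poly-A RNA. Each knockout group is 1 edited line, so an effect of losing Kif2a in KO2 cannot be told apart from other differences between that line and WT, and the labels do not say whether the 3 libraries of a group came from separate cultures. The p-values therefore measure only the spread between these samples, which may be technical. The comparison asks which RNAs differ in the second edited line, beside the lost motor itself.

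Kif2a encodes a kinesin-13 motor protein. Motors of this family do not walk along microtubules but sit at their ends and remove tubulin from them, and so shape the spindle and the microtubules between daughter cells. Mouse ES cells divide fast and are held in the pluripotent state by factors such as Pou5f1, Nanog and Sox2. The study's title concerns KIF2A in the microtubules of the bridge that joins daughter cells before they part.

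Values are normalised read counts on the authors' scale, which are comparable between libraries for 1 gene but not between genes, since they are not divided by gene length. Recovered depth was 14960295 to 18814858 reads per library. A change is a log2 fold change of (value + 1), KO2 over WT, ± SE, and a gene is called where limma's Benjamini-Hochberg adjusted p over the 10238 genes is under 0.05. The identity of the cells was read from fixed marker lists. Pou5f1 had 2438, 2434 and 2329 counts in KO2 libraries and 2437, 2249 and 2401 in WT libraries, with no call (0.024 ± 0.04, adjusted p = 0.69). The 32 markers of core and naive pluripotency summed to 20562 to 21236 counts in KO2 libraries, 20532 to 20913 in KO1 and 19768 to 20431 in WT.

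Kif2a itself (ENSMUSG00000021693, chromosome 13, 106958996 to 107022126 in GRCm38, minus strand) was read first, since it checks the labels. It had 1.06, 0.71 and 1.75 counts in KO2 libraries, from 9, 6 and 17 reads, against 109, 121 and 113 counts in WT libraries, from 1049, 1043 and 959 reads. The groups lay far apart, and KO2 held 1.03% of the WT mean. On the log2 scale Kif2a fell by 5.75 ± 0.18 in KO2 (limma adjusted p = 4e-32), and the ratio of the means was 97.3-fold. An exact two-sided permutation test over the 20 assignments of these 6 libraries gave p = 0.1, the smallest it allows.

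Beyond Kif2a the change in KO2 was broad and shallow. Of the 10238 genes, 1892 (18.5%) were called, 1123 of them higher (11.0%) and 769 lower (7.51%), and 3174 had an unadjusted p under 0.05. The median size of change over all tested genes was 0.096 on the log2 scale, or 6.90%, and the middle 90% of genes lay between −0.24 and 0.30. A gene called higher was raised 1.2-fold in the median, and a gene called lower was reduced 1.18-fold. Calls of at least 1.5-fold numbered 42 higher (0.41% of genes) and 22 lower (0.215%), and 3 genes passed 2-fold, Padi2 and Rassf4 higher and Kif2a lower (Rassf4, named after its value was seen, at 1.09 ± 0.12). A test against a minimum change of 1.2-fold (limma's treat) called 38 genes (0.371%), 22 higher and 16 lower. For 7007 genes (68.4%) the 95% interval of the log2 change lay between −0.32 and 0.32, 640 called genes among them.

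In terms of RNA mass the shift was moderate. Genes called higher held 17.8% to 17.9% of all recovered reads in KO2 libraries, 16.3% to 16.4% in KO1 and 15.5% to 16.0% in WT. Genes called lower held 9.18% to 9.29% in KO2, 10.3% to 10.4% in KO1 and 10.6% to 11.0% in WT. These shares describe genes chosen by the same contrast and carry no test. The KO2 libraries lay entirely above the WT libraries for 1915 genes (18.7%) and entirely below for 1387 (13.5%).

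The balance of higher and lower calls depended on the scaling. The authors' values gave 1123 higher and 769 lower calls, with a median over all genes of 0.015. Median-ratio scaling gave 895 higher and 1023 lower with a median of −0.0076, quantile normalization 929 and 916, TMM scaling 968 and 951, edgeR 950 and 932, and DESeq2 868 and 831. In none of these settings was a gene called with the opposite sign to its call here. Leaving out WT replicate 3 reduced the lower calls to 455, leaving out WT replicate 1 raised the calls of at least 1.5-fold higher to 70, and the treat calls were 25 without KO2 replicate 1 and 20 without WT replicate 2. Over all 9 libraries left out in turn, called genes numbered 1324 to 1808.

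**Figure D1:**
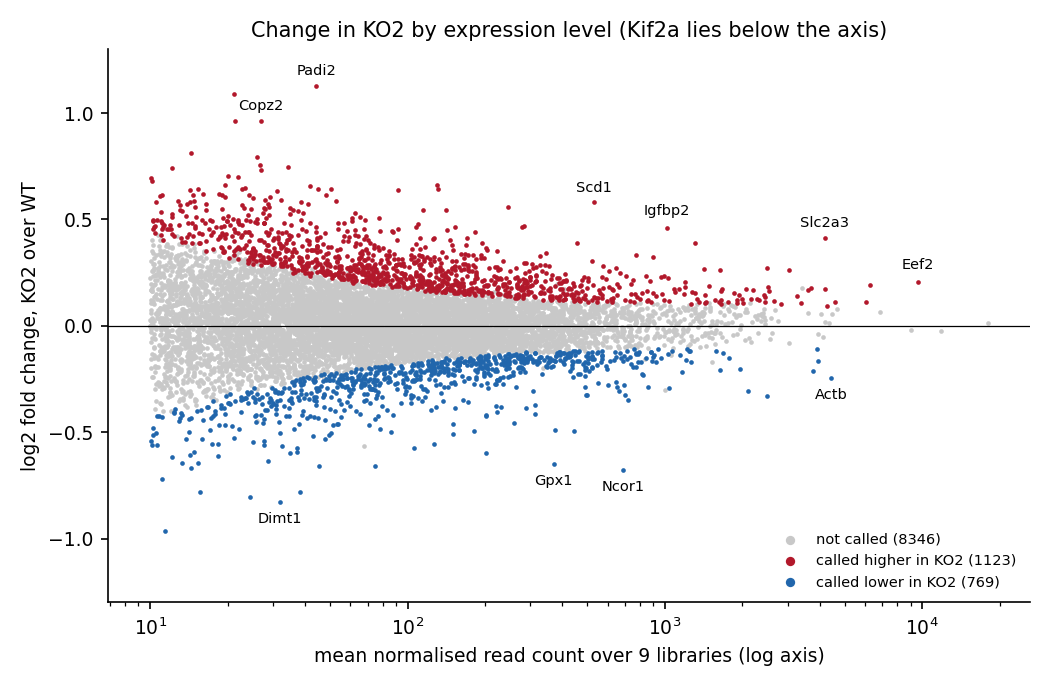
Each point is 1 tested gene, with its mean normalised read count over 9 libraries on the x axis (log scale) and its log2 fold change of KO2 over WT on the y axis. Genes called higher (1123) and lower (769) lie close to 0 at every level, with Padi2 at 1.13 and Ncor1 at −0.68 near the edges; Kif2a lies below the axis.

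Calls were made more often among strongly expressed genes, where the error was smaller. In the lowest 25% of genes by mean level (10.01 to 32.9 counts) 13.4% were called with a median SE of 0.12, and in the highest 25% (170 to 17981 counts) 25.4% were called with a median SE of 0.047. The size of the change ran the other way, with a median of 0.15 in the lowest 25% and 0.075 in the highest. By GC content of the longest transcript, 13.5% of genes in the lowest 25% and 20.5% in the highest were called, and higher calls made up 6.05% and 13.7% of these groups. The difference in level between the GC-richest and GC-poorest 25% of genes was 0.065, 0.12 and −0.078 in KO2 libraries and 0.046, −0.083 and 0.036 in WT libraries, relative to the WT mean on the log2 scale. The KO2 and WT libraries thus overlapped in this measure, and its part in single calls was not tested.

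The gene with the highest rise was Padi2, which converts arginine residues of proteins to citrulline. It had 66.3, 59.6 and 60.1 counts in KO2 libraries, 46.3, 39.5 and 42.97 in KO1 and 31.2, 25.4 and 27.1 in WT. All KO2 libraries lay above all KO1 libraries, and these above all WT libraries. The change in KO2 was 1.13 ± 0.09 (limma adjusted p = 3.2e-14), and KO2 exceeded KO1 by 0.52 ± 0.09 (adjusted p = 5.5e-05). Copz2, a zeta subunit of the COPI coat that returns vesicles to the endoplasmic reticulum (ER), had 38.4, 37.4 and 39.2 counts in KO2 libraries and 20.6, 20.7 and 16.4 in WT libraries (0.96 ± 0.11). The rule that picked the highest and lowest genes required KO2 and WT libraries without overlap. Sptb, a beta-spectrin of the membrane skeleton, had 39.6, 38.6 and 33.4 counts in KO2, 18.9, 19.2 and 22.01 in KO1 and 22.6, 19.8 and 20.8 in WT. For Sptb the KO1 libraries overlapped WT, while KO2 stood above both (0.79 ± 0.11 over WT, 0.86 ± 0.11 over KO1).

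The next genes in order belonged to several cell functions. Gabarapl1, an ATG8-family protein of autophagosomes, rose by 0.76 ± 0.12, and Igfbp4, which binds insulin-like growth factors, by 0.75 ± 0.11. Cotl1, an F-actin-binding protein, had 39, 35.8 and 34.6 counts in KO2 libraries against 24.2, 20.9 and 19.7 in WT libraries (0.73 ± 0.11). Pgm1, a phosphoglucomutase that links glycogen and glycolysis, rose by 0.66 ± 0.12, and Tef, a transcription factor of the PAR bZIP family, by 0.64 ± 0.09. Ndrg2 rose by 0.64 ± 0.10, the membrane-bound metalloprotease gene Mmp17 by 0.62 ± 0.09, and Sil1, which helps the ER chaperone BiP to release nucleotide, by 0.61 ± 0.10. Of these, Gabarapl1 was also 0.37 above WT in KO1, whereas Cotl1 was at 0.085 and Pgm1 at 0.091 there.

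After Kif2a, the smallest adjusted p of all tested genes was that of Ncor1. It encodes a corepressor that brings histone deacetylase to nuclear receptors. Ncor1 had 473, 490.1 and 500.2 counts in KO2 libraries, 787, 794 and 787 in KO1 and 787, 746 and 808 in WT. KO1 and WT libraries overlapped, and every KO2 library lay far below both (−0.68 ± 0.04, limma adjusted p = 1.4e-19; KO2 minus KO1 −0.69 ± 0.04). Fsd1l fell by 0.66 ± 0.07 on the log2 scale. Tubb3, the neuronal beta-tubulin, had 56.7, 58.2 and 52.4 counts in KO2 libraries against 85.95, 91.1 and 88.9 in WT libraries, and Gpx1, the selenium-dependent enzyme that reduces hydrogen peroxide, had 296, 293 and 272 against 434, 463 and 456. The rule that picked both genes required groups without overlap.

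Trh, the precursor of thyrotropin-releasing hormone, had 139, 143 and 137 counts in KO2 libraries, 236, 249 and 270.2 in KO1 and 206, 211 and 218 in WT. It was lower than WT in KO2 (−0.60 ± 0.05) and stood above WT in KO1 (0.25). Tsix, the antisense RNA of Xist, had 18.4, 22.6 and 26.9 counts in KO2 libraries and 34.4, 35.1 and 36.4 in WT libraries (−0.63 ± 0.11); whether reads were counted by strand is not given in the sources used here, so reads of Tsix and of its antisense partner may not have been told apart. Trpm1, a cation channel, fell to 26.6 ± 2.35 counts in KO2 (mean ± SD, n = 3), against 40.8 ± 5.11 in WT. Notum, which removes the lipid from Wnt proteins, Aoah, which deacylates lipopolysaccharide, Gas8, a subunit of the dynein-regulatory complex of cilia, Epp13 and Ppp1r10, a nuclear regulator of protein phosphatase 1, changed by −0.58, −0.58, −0.56, −0.56 and −0.55 in that order. Gas8 and Tubb3 lie on chromosome 8 with 96.8 kb between them, and in KO1 they stood at −0.26 and −0.13. The tested genes Def8 and Afg3l1 lie between them and were not called in KO2 (0.053 and 0.10).

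**Figure D2:**
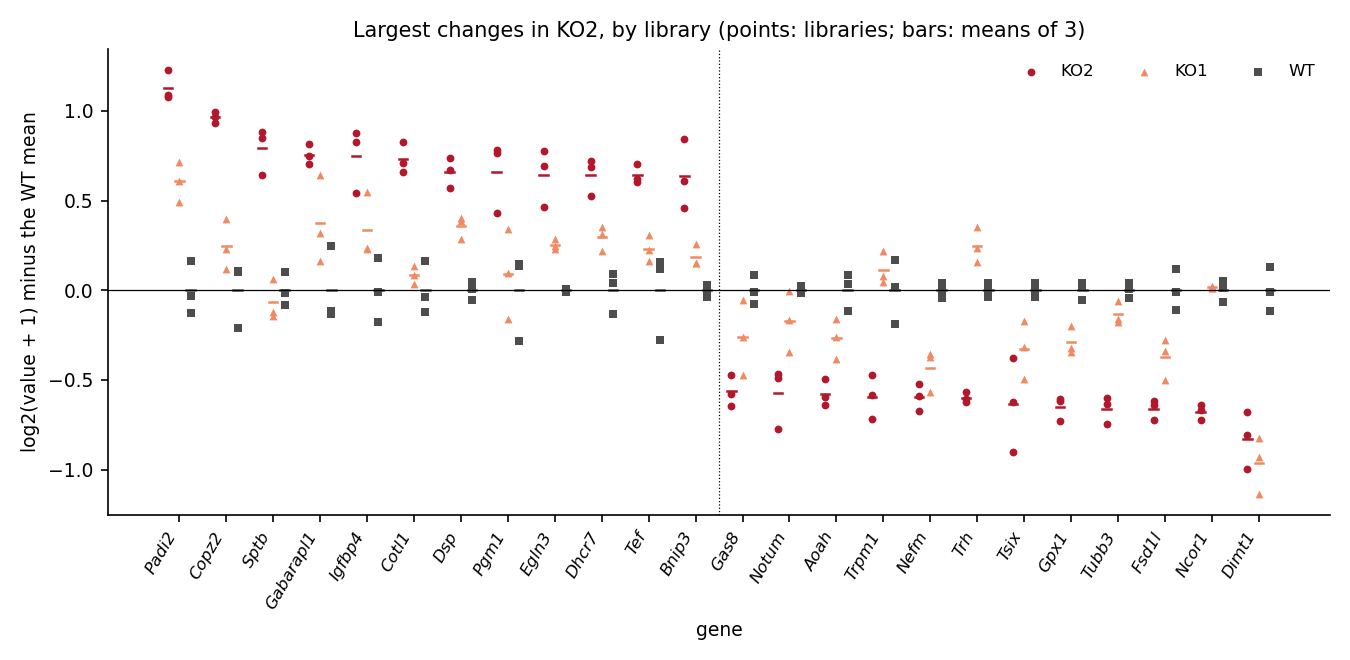
Each point is 1 library, drawn as log2(value + 1) minus the WT mean, for the 12 highest and 12 lowest named genes other than Kif2a, with bars at the means of 3 libraries. The genes were picked for KO2 libraries that lie beyond the same WT libraries without overlap, so that separation is set by the rule. KO1 lies between KO2 and WT for most. Sptb, Trh, Trpm1 and Ncor1 lie in KO1 at or beyond WT in the other direction, and Dimt1 is low in both lines.

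Abundant genes changed by less but with small errors. Scd1, the desaturase that makes oleate from stearate, had 656, 636 and 709 counts in KO2 libraries against 453, 439 and 445 in WT libraries (0.58 ± 0.04, limma adjusted p = 4.8e-16). Igfbp2, another binder of insulin-like growth factors, had 1257, 1237 and 1177 counts against 926, 853 and 887, and the glucose transporter gene Slc2a3 had 4953, 4499 and 4979 against 3708, 3506 and 3619. Each of the 3 genes was separated between KO2 and WT. Tdgf1 (Cripto), the Nodal co-receptor, rose by 0.39 ± 0.04, and Mfge8, a secreted protein that binds phosphatidylserine, by 0.33 ± 0.04. In the other direction the autophagy receptor Calcoco2 had 601, 616 and 619.7 counts in KO2 libraries against 778, 780.3 and 781 in WT libraries (−0.35 ± 0.04). The RNA helicase gene Ddx39b and Sfpq, a nuclear RNA-binding protein, changed by −0.32 ± 0.04 and −0.30 ± 0.04. Actb, the cytoplasmic beta-actin gene often used as a control, had 4035, 4187 and 3869.9 counts in KO2 and 4729.5, 4865 and 4735 in WT, a fall without overlap (−0.25 ± 0.03, adjusted p = 2.6e-07).

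**Figure D3:**
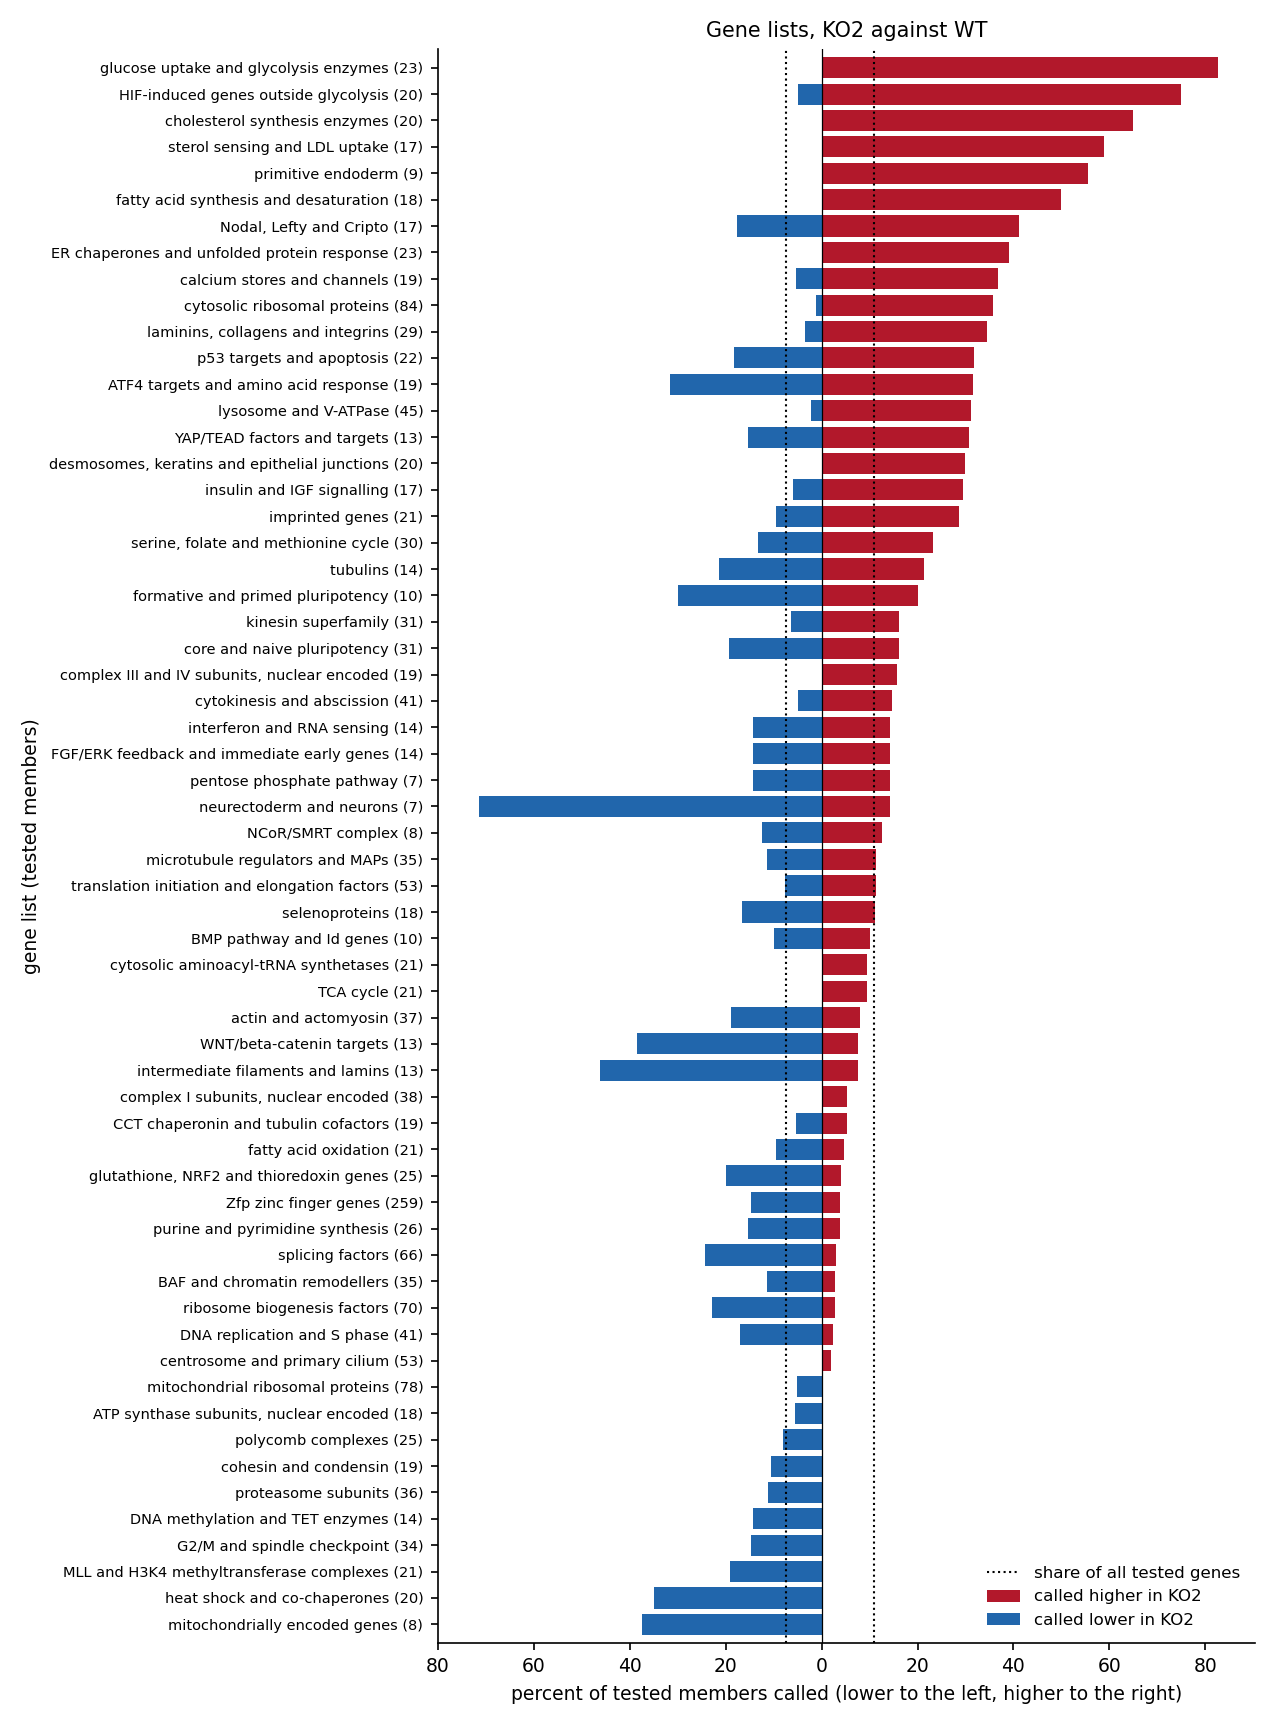
Bars give the percent of tested members called higher (right) or lower (left) in KO2 against WT for every list with at least 7 tested members, with the number tested in brackets; dotted lines mark the share of all tested genes, 11.0% and 7.51%. Glycolysis, HIF-induced and sterol lists stand at the top, and heat shock, mitochondrially encoded and intermediate filament lists hold lower calls.

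Among lists of at least 10 tested genes, those of glycolysis and of the response to low oxygen had the highest shares called, 82.6% and 80%, beside 18.5% of all genes. The counts of every list below are to be read beside 11.0% of all genes called higher and 7.51% called lower. Hypoxia-inducible factors (HIFs) are transcription factors that are destroyed in the presence of oxygen; they bind a short core sequence in promoters and switch on genes of glucose uptake, glycolysis and survival at low oxygen. Of 20 tested HIF-induced genes outside glycolysis 15 were called higher and 1 lower, with a median of 0.29, beside 0.015 over all genes. Of 23 tested genes of glucose uptake and glycolysis 19 were called higher and none lower, with a median of 0.18. Under the other scalings 13 to 15 and 15 to 18 members of these lists were called higher, and with 1 library left out 11 to 15 and 14 to 19. Against WT, KO1 had 2 glycolysis calls, both higher, where 0.83% of all genes were called higher in KO1, and the KO1 medians of the HIF and glycolysis lists were 0.067 and 0.054. The difference between the lines was itself called, KO2 above KO1, for 10 HIF-list and 12 glycolysis members, where 4.71% of all genes were higher in KO2 than in KO1. Kdm3a was the 1 HIF-list member called below KO1 (−0.24 ± 0.04). These contrasts use the same KO2 libraries.

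Bnip3, which recruits autophagosomes to mitochondria, had 114, 103 and 134 counts in KO2 libraries against 72.3, 74.7 and 75.9 in WT libraries (0.64 ± 0.07, limma adjusted p = 1.7e-09). Egln3, a prolyl hydroxylase that marks HIF for destruction and is itself a HIF target, had 61.6, 49.3 and 58.1 counts against 35.6, 35.6 and 35.3 (0.64 ± 0.09). Both were separated from WT in every library. Ddit4, an inhibitor of mTORC1, had 159, 137 and 131 counts in KO2 and 103, 97 and 91.8 in WT (0.54 ± 0.07), and P4ha1, a collagen prolyl hydroxylase, rose by 0.41 ± 0.06. The 1 called member that fell was Kdm3a, a histone demethylase named after its value was seen (−0.18 ± 0.04). Among glycolysis genes the lactate exporter Slc16a3 had 347, 323 and 321 counts in KO2 libraries against 240.1, 230.2 and 247 in WT libraries (0.47 ± 0.05), the glucose transporter Slc2a1 929.9, 838 and 856 against 696, 662 and 719.8 (0.34 ± 0.04), and hexokinase Hk1 591, 591 and 586 against 478, 474 and 479 (0.31 ± 0.04). No library of the groups overlapped for these 3 genes. The 4 members without a call, named after their values were seen, were Pkm (0.065 ± 0.03), Gapdh (−0.037 ± 0.03), Eno1 (0.02 ± 0.03) and Pfkfb4 (−0.057 ± 0.15). Txnip, a glucose-responsive inhibitor of glucose uptake, was higher as well, with 297, 300.1 and 318 counts in KO2 libraries against 215, 200.4 and 205 in WT libraries.

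NACGTG, 1 form of the HIF core sequence, was searched on both strands in RefSeq promoter windows (GRCm38.p6), 250 bases before to 50 after each start. In all, 8123 tested genes had 10403 windows, and 26.4% of windows held it. It stood in 57.1% of 21 windows of the HIF list and 50.0% of 34 windows of the glycolysis list, but in 27.5% of the windows of all genes called higher and 24.03% of those of genes called lower. The E-box CACGTG is 1 form of the same letters. In the HIF list 11 genes with NACGTG had a median change of 0.41, 10 of them called higher. The 4 genes without NACGTG had a median of 0.14, 2 of them called higher. Other forms of the core were not searched, so genes without NACGTG may hold another form. In the glycolysis list the medians were 0.19 for 14 genes with NACGTG and 0.15 for 8 without it. The HIF list was chosen from known HIF targets, so the share of windows describes the choice of list. The 250 bases before the start of 3 members with large changes are shown, with NACGTG in capitals on the strand of the gene. They are Bnip3 from chr7:138909507-138909756 (minus), Egln3 from chr12:54203875-54204124 (minus) and Slc2a1 from chr4:119108495-119108744 (plus).
Bnip3: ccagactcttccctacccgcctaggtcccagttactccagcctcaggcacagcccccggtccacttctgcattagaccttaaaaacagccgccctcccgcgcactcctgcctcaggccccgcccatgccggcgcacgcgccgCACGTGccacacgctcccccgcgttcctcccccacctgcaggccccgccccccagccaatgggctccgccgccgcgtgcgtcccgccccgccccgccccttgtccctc
Egln3: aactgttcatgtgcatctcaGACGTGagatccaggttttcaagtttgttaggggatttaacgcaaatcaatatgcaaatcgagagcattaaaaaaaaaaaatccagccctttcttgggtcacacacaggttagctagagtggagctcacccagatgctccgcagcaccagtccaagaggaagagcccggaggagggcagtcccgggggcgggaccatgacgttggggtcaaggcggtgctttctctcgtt
Slc2a1: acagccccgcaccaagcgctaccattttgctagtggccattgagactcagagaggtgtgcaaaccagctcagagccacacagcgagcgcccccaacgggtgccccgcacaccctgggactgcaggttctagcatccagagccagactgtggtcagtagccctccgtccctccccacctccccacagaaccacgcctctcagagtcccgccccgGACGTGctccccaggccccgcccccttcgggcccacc
Each holds 1 match, and the Bnip3 match is CACGTG, the same letters on both strands.

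Few nuclear genes of oxidative metabolism were called. Of 21 tested TCA cycle genes 2 were called higher and none lower (median 0.012); without KO2 replicate 2 or without WT replicate 3 only 1 was higher, and without KO2 replicate 3 1 was lower. Of 38 nuclear-encoded complex I subunits 2 were called, Ndufa4l2 (0.60 ± 0.12) and Ndufb11 (0.24 ± 0.06), both higher; 5 were higher and 1 lower without KO2 replicate 3, and 4 higher without WT replicate 1. Ndufa4l2 has been described as a HIF target. The 8 tested genes encoded in mitochondrial DNA had a median of −0.24, and 3 were called lower. Among them mt-Cytb, the core subunit of complex III, had 1725, 1769 and 2070.1 counts in KO2 libraries against 2234, 2383 and 2239 in WT libraries (−0.31 ± 0.05), with no overlap. KO2 replicate 3 was the highest of its group for mt-Cytb, and without it 6 of the 8 genes were called lower. Reads of mitochondrial genes made up 0.847%, 0.860% and 1.03% of KO2 libraries and 0.962% to 1.08% of WT libraries.

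**Figure D4:**
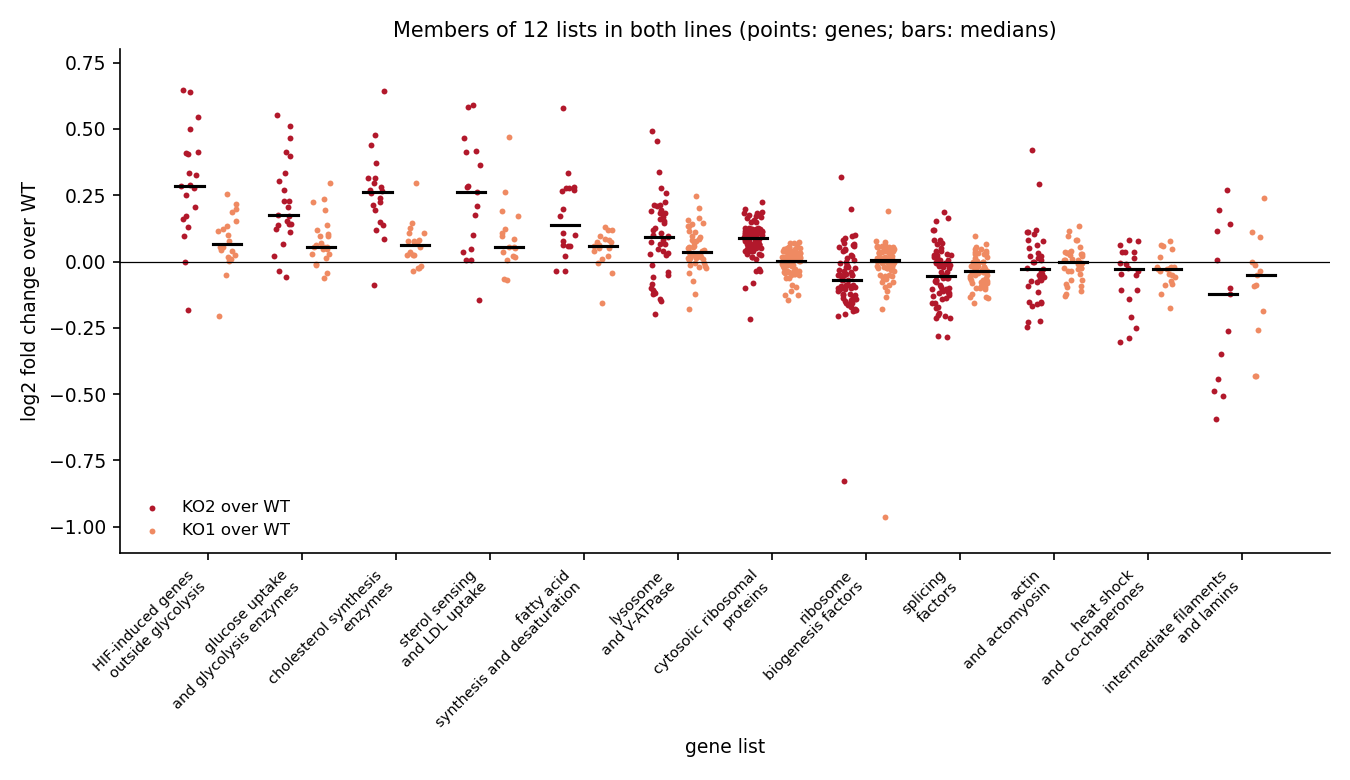
Each point is 1 tested gene of the list on the x axis, with its log2 fold change over WT in KO2 (left of each pair) and KO1 (right), and bars at the medians. The medians in KO2 are 0.29 for HIF-induced genes, 0.18 for glycolysis and 0.26 for both sterol lists, beside KO1 medians of 0.067, 0.054, 0.061 and 0.055; both lines share the WT libraries.

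Genes of sterol and fatty acid synthesis had higher calls and no lower ones. When sterols run low, Insig proteins release SREBP transcription factors from the ER, and these switch on cholesterol synthesis enzymes, the LDL receptor and fatty acid synthesis. Of 20 cholesterol synthesis enzymes, all tested, 13 were called higher and none lower, with a median of 0.26. Of 17 tested genes of sterol sensing and LDL uptake 10 were called higher and none lower (median 0.26), and of 18 genes of fatty acid synthesis and desaturation 9 and none (median 0.14). These counts were 10 to 13, 9 to 11 and 8 to 9 with 1 library left out. Higher than KO1 were 12, 6 and 8 members, where 4.71% of all genes were, and the sterol sensing member Abca1, named after its value was seen, was lower (−0.24 ± 0.07). The cholesterol and sterol sensing lists each had 1 member called higher in KO1 against WT, where 0.83% of all genes were. Fatty acid oxidation, which breaks down what these enzymes make, had 1 higher and 2 lower calls among 21 genes (14.3%, below the 18.5% of all genes). Both lower calls were lost without KO2 replicate 1 or without WT replicate 3. Without KO2 replicate 2 or 3 or WT replicate 1 there was 1 lower call. Without KO2 replicate 3 or WT replicates 2 or 3 there were 2 higher.

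Dhcr7, the last enzyme of cholesterol synthesis, had 170.4, 167 and 149 counts in KO2 libraries, 129, 132 and 120.3 in KO1 and 109.8, 94.1 and 106 in WT. Its groups did not overlap (0.64 ± 0.06 in KO2, limma adjusted p = 2.4e-11; 0.30 in KO1). The C4-methyl sterol oxidase Msmo1 had 206, 212 and 233 counts in KO2 libraries against 167, 159 and 153 in WT libraries (0.44 ± 0.06), and the lanosterol demethylase Cyp51 had 127, 135 and 137 against 97.9, 98.3 and 89.3 (0.48 ± 0.06). Fdps, which makes farnesyl pyrophosphate, rose by 0.30 ± 0.05. Insig1, the sterol-responsive retention factor, had 190.3, 169.6 and 190.4 counts in KO2 and 136, 136 and 126 in WT (0.46 ± 0.06), while Srebf2, the gene of the sterol-sensing transcription factor, rose by 0.28 ± 0.04. Scarb1, a receptor for high-density lipoprotein, rose by 0.41 ± 0.06 and the sterol exporter gene Abcg1 by 0.58 ± 0.09. The sterol sensing list thus holds genes of uptake and of export together, and its count does not give the direction of a sterol response. Of the desaturases, Scd2 had 2780.2, 2636 and 2922 counts in KO2 libraries against 2263, 2314 and 2334 in WT libraries, and Fads1 and Fads2 rose by 0.33 ± 0.05 and 0.28 ± 0.05. Other members of the fatty acid list were named after their values were seen. Acaca (0.20) and Acss2 (0.28) were called higher, while Fasn (−0.036), Acly (0.059), Elovl6 (0.058) and Acacb (0.11) were not called. Hmgcs1, an early enzyme of cholesterol synthesis named after its value was seen, stood at 0.26 ± 0.05 and was called.

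Promoter windows of the cholesterol list held the CCAAT box (CCAAT, both strands), the site of the factor NF-Y, in 77.8% of 18 windows, beside 38.4% of all windows. Genes called higher and genes called lower held it in 39.7% and 39.5% of windows. Over the lists searched the share ran from 29.7% for cytosolic ribosomal proteins to this 77.8%, with DNA replication at 61.5%. The sterol regulatory element TCACNCCAC (both strands) was found in 1.11% of all windows, in 1.96% of windows of genes called higher and in 0.377% of windows of genes called lower. Most called sterol genes have no match to these letters: 1 of 15 list members with a window held it, and 9 of the other 14 were called higher. The 250 bases before the start are shown for Dhcr7 (1 of 3 windows of this gene, chr7:143829964-143830213, plus strand, CCAAT or its reverse complement in capitals) and for Hmgcs1 (chr13:119690101-119690350, plus strand, the sterol element in capitals).
Dhcr7: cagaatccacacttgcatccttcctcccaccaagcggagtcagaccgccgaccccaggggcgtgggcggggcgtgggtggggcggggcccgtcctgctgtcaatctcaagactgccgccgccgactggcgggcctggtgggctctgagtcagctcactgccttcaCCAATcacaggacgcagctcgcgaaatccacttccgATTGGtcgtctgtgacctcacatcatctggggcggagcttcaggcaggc
Hmgcs1: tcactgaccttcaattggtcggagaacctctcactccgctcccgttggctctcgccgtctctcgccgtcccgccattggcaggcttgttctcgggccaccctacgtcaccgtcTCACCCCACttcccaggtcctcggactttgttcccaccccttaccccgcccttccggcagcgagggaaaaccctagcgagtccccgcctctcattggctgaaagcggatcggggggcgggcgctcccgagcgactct

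Called ribosomal protein genes were mostly higher and called ribosome-building factors mostly lower. Of 84 tested cytosolic ribosomal protein genes 30 were called higher and 1 lower, with a median of 0.088 in KO2 and 0.0035 in KO1, and 20 were higher than in KO1, where 4.71% of all genes were. The number higher was 19 to 26 under other scalings, 17 without KO2 replicate 3 and 13 without WT replicate 2. Many of these genes have processed pseudogenes, so their counts can share reads with copies. Rpl13a, of the large subunit, had 4374, 4572 and 4608 counts in KO2 libraries against 4227, 3824 and 3974 in WT libraries (0.17 ± 0.03), with all KO2 libraries higher. Of the factors that build ribosomes 2 were higher and 16 lower of 70 (25.7%, beside 18.5% of all genes, median −0.069). The lower count was 16 to 24 under other scalings, 9 without KO2 replicate 1 and 8 without WT replicate 3. Utp20, a component of the small-subunit processome, had 471, 469.5 and 492 counts in KO2 and 537, 571 and 535 in WT (−0.20 ± 0.04), and Nop56, of the box C/D snoRNP, fell to 690.5 ± 18.6 counts in KO2 (mean ± SD, n = 3), against 783 ± 34.2 in WT. Dimt1, an rRNA dimethylase whose gene overlaps Kif2a, is also of this list and is described with the neighbours of Kif2a. The initiation factor Eif4g2 changed by −0.20 ± 0.04. The elongation factor Eef2, one of the most abundant RNAs here, stood at 0.21 ± 0.03, a call that quantile normalization ended.

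The splicing and zinc finger lists held more lower than higher calls. Of 66 splicing factors 2 were higher and 16 lower (27.3% in all, median −0.056). There were 9 lower without KO2 replicate 1, 10 without KO2 replicate 2 and 9 without WT replicate 3. The SR protein gene Srsf6 had 436, 429 and 439 counts in KO2 libraries against 517, 538 and 536 in WT libraries (−0.29 ± 0.04), and Hnrnph1 had 496, 530.1 and 578 against 649, 638 and 656 (−0.28 ± 0.05), both without overlap. Of 259 tested Zfp zinc finger genes, from 370 in the table, 10 were higher and 38 lower (median −0.066), in all 18.5%, the same share as over all genes, of which 11.0% were higher and 7.51% lower; the lower count was 18 without KO2 replicate 1, 25 without WT replicate 2 and 22 without WT replicate 3, and the higher count 6 without WT replicate 2. Zfp961 and Zfp936 changed by −0.25 ± 0.05 and −0.42 ± 0.09, and Zfp296, an ES cell factor that binds heterochromatin, by −0.32 ± 0.06, while Zfp652 rose by 0.28 ± 0.06. Mllt6, a partner of the H3K79 methyltransferase, had 438, 463 and 416 counts in KO2 and 551, 520.5 and 577 in WT (−0.32 ± 0.04). The de novo DNA methyltransferase Dnmt3b had 189, 190.3 and 187 counts in KO2 libraries against 242, 242 and 251 in WT libraries (−0.38 ± 0.05), and the demethylase gene Kdm6a and the remodeller gene Chd3 changed by −0.25 ± 0.06 and −0.29 ± 0.07. Of the other members of the NCoR/SMRT complex, 8 tested in all, none but Ncor1 was called lower.

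Called chaperone genes of the ER were higher and those of the cytosol lower. Of 23 ER chaperone and unfolded protein response genes 9 were called higher and none lower (39.1%, beside 18.5% of all genes, median 0.12). They were led by Hyou1, a large ER chaperone with 671, 668 and 655 counts in KO2 libraries against 605, 578 and 591 in WT libraries (0.17 ± 0.04). Of 20 tested heat shock and co-chaperone genes of the cytosol none was called higher and 7 lower (35.0%). The lower count was 4 without KO2 replicate 1 and 4 without WT replicate 3, and 2 were higher without KO2 replicate 3. Hsph1, a nucleotide exchange factor of Hsp70, had 261, 269 and 275 counts in KO2 and 315, 342 and 339 in WT (−0.30 ± 0.05), and Dnaja1, an Hsp70 co-chaperone, changed by −0.29 ± 0.05. Targets of the amino acid response factor ATF4 moved in both directions, 6 higher and 6 lower of 19. Phgdh, which starts serine synthesis, rose by 0.37 ± 0.06, and Pycr1, which makes proline, by 0.40 ± 0.06. The cationic amino acid transporter Slc7a3 had 132, 127 and 128 counts in KO2 libraries against 166, 169.6 and 171 in WT libraries (−0.39 ± 0.06), and Atf4 itself fell to 468 ± 9.58 counts in KO2 (mean ± SD, n = 3), against 543 ± 3.63 in WT. Lysosomal genes had 14 higher and 1 lower call among 45 (33.3%, median 0.092). The lower call was lost without KO2 replicates 2 or 3 or WT replicate 1, while 3 to 4 were lower under the other scalings. The lysosomal membrane protein gene Laptm4b had 115, 104 and 115 counts in KO2 and 83.98, 80.02 and 78.97 in WT (0.45 ± 0.07), and the hydrolase genes Neu1 and Ctsd rose by 0.49 ± 0.08 and 0.21 ± 0.04.

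In methionine and redox metabolism genes were called in both directions. Mat2a, which makes the methyl donor S-adenosylmethionine, had 351, 356 and 360.2 counts in KO2 libraries against 482, 514 and 510.4 in WT libraries, without overlap (−0.50 ± 0.04, limma adjusted p = 1.4e-13); in KO1 it stood at −0.089. Bhmt, which remethylates homocysteine from betaine, changed by 0.41 ± 0.06, less than in KO1 (KO2 minus KO1 −0.24 ± 0.06, adjusted p = 0.0076). The list of the serine, folate and methionine cycle had 7 higher and 4 lower calls among 30. Gpx4, which reduces lipid peroxides, rose by 0.19 ± 0.04 while its relative Gpx1 fell. Of 18 tested selenoproteins 2 were higher and 3 lower (27.8% in all, beside 18.5% of all genes), with 1 higher without KO2 replicate 3 or WT replicates 1 or 3. The NRF2 target Nqo1 had 93.5, 79.5 and 95.4 counts in KO2 and 112, 113 and 119.8 in WT (−0.36 ± 0.07), and Nfe2l2, the gene of NRF2, changed by −0.21 ± 0.05.

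Genes of microtubules and cell division, the setting in which Kif2a acts, were called at 22.6% of kinesins, 42.9% of tubulins, 22.9% of microtubule regulators, 19.5% of cytokinesis genes and 14.7% of G2/M genes, beside 18.5% of all genes. Kif21b, a kinesin that slows microtubule growth, had 31.1, 27.8 and 29.4 counts in KO2 libraries, 18.1, 20.3 and 19.8 in KO1 and 17.2, 10.002 and 17.95 in WT, and the KO2 libraries lay above all others (0.96 ± 0.14, limma adjusted p = 6.8e-07). Among 31 tested kinesins, Kif2a included, 5 were called higher and 2 lower, and under the other scalings 3 to 4 were higher and 2 to 5 lower; the higher count was 3 without KO2 replicate 1 or WT replicate 3, and the lower count was 1 without KO2 replicates 1 or 2 or WT replicates 2 or 3 and 4 without KO2 replicate 3. The transport kinesins Kif1c and Kif3c rose by 0.25 ± 0.06 and 0.42 ± 0.11. Of 14 tubulins 3 were higher, Tuba3a (0.27 ± 0.06) and Tubb6 (0.25 ± 0.06) among them, and 3 lower, with Tubb3 at −0.66 ± 0.07; without KO2 replicate 1 only 1 was lower. Of 35 microtubule regulators 4 were higher and 4 lower, with 2 lower without KO2 replicate 1 or WT replicate 2 and none without WT replicate 3. The plus-end protein Clip1, the kinesin-1 recruiter Map7 and the stabiliser Map4 rose by 0.40 ± 0.08, 0.28 ± 0.06 and 0.16 ± 0.04.

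Of 34 genes of G2/M and the spindle checkpoint none was called higher and 5 lower, with 3 lower without KO2 replicate 1 or WT replicate 2, and without WT replicate 3 1 higher and 2 lower. Cdc20, the activator of the anaphase-promoting complex, had 407, 422 and 378 counts in KO2 libraries against 459, 489 and 478 in WT libraries (−0.24 ± 0.05), and its partner Ube2c 336, 339 and 343 against 381, 392 and 388 (−0.19 ± 0.04). Neither pair of groups overlapped. Of 41 DNA replication and S-phase genes 1 was higher and 7 lower, in all 19.5%, beside 18.5% of all genes, with 3 lower without WT replicate 3 and 10 to 11 under other scalings. The higher call was lost under every other scaling tried and without KO1 replicate 2, KO2 replicate 2 or WT replicates 2 or 3. Cyclin D1 (Ccnd1) had 222, 216 and 200.1 counts in KO2 and 306, 288 and 284 in WT (−0.46 ± 0.05), and cyclin E1 (Ccne1) changed by −0.22 ± 0.05. In the cytokinesis list 6 of 41 table entries were called higher and 2 lower, but under the other scalings 2 to 5 were higher and 3 to 5 lower; the higher count was 3 without KO2 replicates 2 or 3 or WT replicates 1 or 3, and the lower 1 without KO2 replicate 1, none without KO2 replicate 2 or WT replicate 3, and 4 without KO2 replicate 3. The ESCRT-III gene Chmp2a and Pdcd6ip (ALIX), both of which act in the final cut between daughter cells, rose by 0.30 ± 0.06 and 0.22 ± 0.05. The p53 gene Trp53 had 643, 639 and 614 counts in KO2 libraries against 778, 746 and 776 in WT libraries (−0.28 ± 0.04), in a list of p53 targets and apoptosis genes with 7 higher and 4 lower calls among 22 (median −0.0094; 2 lower without KO2 replicate 3 or WT replicate 3). Zmat3 and Pmaip1 (Noxa) rose by 0.22 ± 0.05 and 0.49 ± 0.11, while Gtse1 and, named after their values were seen, Bax and Bcl2l1 changed by −0.18 ± 0.04, −0.13 ± 0.04 and −0.18 ± 0.06. Of 53 tested genes of the centrosome and primary cilium 1 was called, the ciliopathy gene Bbs9 (0.36 ± 0.09); without KO2 replicate 2, WT replicate 1 or WT replicate 3 there were 2 higher, and without KO2 replicate 3 1 lower.

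Intermediate filament and actin genes held lower calls, and junction and matrix genes higher ones. Of 13 tested intermediate filament and lamin genes 6 were called lower and 1 higher, 2 higher without KO2 replicate 3. Vim (vimentin) had 310.2, 314 and 305 counts in KO2 libraries against 429, 438 and 437 in WT libraries (−0.49 ± 0.04), and the neurofilament genes Nefm, Nefh and Nefl changed by −0.60 ± 0.09, −0.51 ± 0.08 and −0.44 ± 0.08. Nefm and Nefl overlap in the annotation, so reads of the pair may be shared. Of 37 actin and actomyosin genes 3 were higher and 7 lower, with Actg1 at −0.22 ± 0.04 and profilin (Pfn1) at −0.23 ± 0.04 beside Actb, and the nonmuscle myosin Myh14 at 0.29 ± 0.06. Desmosome and junction genes had 6 higher and no lower call among 20 (30.0%, beside 18.5% of all genes). Dsp, which ties desmosomes to intermediate filaments, had 168, 149.9 and 161 counts in KO2, 123, 132 and 133 in KO1 and 104, 96.9 and 101 in WT, in 3 groups without overlap. The desmosomal Pkp2, P-cadherin (Cdh3) and the tight-junction protein gene Tjp3 rose by 0.53 ± 0.09, 0.32 ± 0.06 and 0.49 ± 0.10. Of 29 tested laminin, collagen and integrin genes 10 were higher and 1 lower (37.9% in all). The lower count was 2 without KO2 replicate 2 and 3 without WT replicate 2. The laminin receptor subunit Itga6 had 313, 309 and 328 counts in KO2 libraries and 259, 261 and 254 in WT libraries (0.29 ± 0.05).

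Lineage markers moved in small numbers. Of 9 tested primitive endoderm markers, from 13 in the table, 5 were called higher and none lower (median 0.24 in KO2, 0.088 in KO1). Gata4, a transcription factor of that lineage, had 19.9, 20.5 and 20.1 counts in KO2 libraries, 13.6, 12.6 and 14.1 in KO1 and 13.7, 13.3 and 10.9 in WT (0.64 ± 0.13). Apoe rose by 0.27 ± 0.04, and the laminin chains Lama1 and Lamb1 by 0.23 ± 0.05 and 0.31 ± 0.07; for these 3 genes KO1 stood at 0.24, 0.25 and 0.42 over WT. Of the 4 markers below the level tested, Dab2 averaged 3.42 counts in KO2 and 5.90 in WT and Pdgfra 1.18 in KO2 and 1.94 in WT, the opposite direction, and Hnf4a averaged 11.7 in KO2 and 7.28 in WT (all 3 named after their values were seen). The whole list summed to 4476 to 4613 counts in KO2 libraries, 4420 to 4544 in KO1 and 4107 to 4383 in WT. Of 7 tested neural markers 5 were lower and 1 higher (median −0.44), and the list of 15 summed to 607 to 636 counts in KO2 against 703 to 710 in WT. The higher call was Nes (218 in KO2, 191 in WT), and the tested neurofilament genes also count in the intermediate filament list. Below the level tested, Sox1, Map2, Elavl4 and Pax6 averaged 6.38, 2.84, 1.56 and 0.589 in KO2 against 5.19, 2.18, 0.900 and 0.190 in WT. Stmn3, Gap43, Elavl3 and Neurog1 averaged lower in KO2 (all named after their values were seen). The 4 tested fibroblast markers were all called higher, 3 to 4 under the other scalings, with the call of Fn1 lost under quantile normalization (0.017); they were led by Pdgfrb with 24.7, 22.6 and 21.2 counts in KO2 libraries against 14.1, 14.2 and 15.1 in WT libraries (0.62 ± 0.12) and Fbln2 (0.61 ± 0.12). The sum over all 12 fibroblast markers was 6589 to 7181 in KO2 and 5722 to 6338 in WT, mostly Fn1, while Col1a1 averaged 1.60 counts in KO2 and 1.94 in WT, below the level tested. Also below it, Col1a2, Fbn1 and Col5a2 averaged 3.14, 3.63 and 4.34 in KO2 and 3.94, 5.74 and 4.88 in WT. Thy1 and Tagln went the other way, with 10.7 and 1.12 in KO2 and 7.22 and 0.519 in WT (all named after their values were seen). Whether fibroblasts were present, and any part of them in the laminin, collagen and integrin calls, was not tested. The 4 tested trophoblast markers, named after their values were seen, had no call by limma and no unadjusted p under 0.05 (Tfap2c 0.15 ± 0.08, Eomes 0.20 ± 0.15, Tfap2a −0.067 ± 0.08, Krt8 0.0057 ± 0.11). In bulk RNA, fewer cells of a type and less RNA per cell cannot be told apart.

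Pluripotency genes themselves were called in both directions, 5 higher and 6 lower of 31 (35.5% in all, beside 18.5% of all genes). Nanog had 1565, 1613 and 1695 counts in KO2 libraries and 1717, 1668 and 1673 in WT libraries and was not called (−0.054 ± 0.04, limma adjusted p = 0.32), nor was Sox2 (0.20 ± 0.07, adjusted p = 0.084). Zfp42, another marker of ES cells, had 1158, 1190 and 1198 counts in KO2 libraries against 1337, 1342 and 1312.5 in WT libraries, lower without overlap. Esrrb averaged 1246 counts in KO2 and 1308 in WT. Sall4, named after its value was seen, averaged 536 in KO2 and 603 in WT. Dppa5a had 3203, 3297 and 3449 counts in KO2 and 2778, 2648 and 2869 in WT, without overlap (0.26 ± 0.04). Fgf4, the main FGF of ES cells, rose by 0.26 ± 0.04, and Dppa2, an activator of early embryonic genes, changed by −0.42 ± 0.07. Otx2, a factor of the formative state that follows, rose by 0.28 ± 0.07 while Dnmt3b, a marker of the same state, fell. Among imprinted genes 6 were higher and 2 lower of 21 (38.1% in all), with 1 lower when any single library other than KO2 replicate 1 was left out. Peg3, expressed from the paternal copy, had 172, 158 and 184 counts in KO2 libraries against 140.2, 136 and 124 in WT libraries (0.36 ± 0.06). Mest, also paternally expressed, had 65.5, 64.2 and 68.6 counts in KO2 against 85.8, 85.2 and 87.3 in WT (−0.38 ± 0.07), the opposite direction.

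Signalling genes showed the same mixture. Of 13 tested WNT/beta-catenin targets 5 were called lower and 1 higher (46.2% in all, beside 18.5% of all genes). The higher call was lost without KO2 replicate 2 or WT replicate 2. Axin2, the feedback inhibitor of the pathway, had 120.2, 124 and 111 counts in KO2 libraries, 168, 165 and 169.9 in KO1 and 161, 156 and 173 in WT, so that KO2 alone lay below WT (−0.46 ± 0.06; KO2 minus KO1 −0.50 ± 0.06). The transcription factor Sp5 had 8.98, 11.6 and 10.8 counts in KO2 and 17.2, 23.3 and 15.96 in WT (−0.78 ± 0.14). In the Nodal list 7 were higher and 3 lower of 17 (58.8% in all). There were 3 higher without KO2 replicate 1, 4 without WT replicate 2 or 3, and 1 lower without WT replicate 1. Its members Skil, which restrains SMAD proteins, and Gdf3, a Nodal-related ligand, changed by 0.33 ± 0.06 and −0.27 ± 0.05. Bmp7 had 25.9, 22.9 and 24.9 counts in KO2 libraries against 17.3, 13.96 and 15.96 in WT libraries (0.61 ± 0.12). In the insulin and IGF list 5 were higher and 1 lower of 17 (35.3% in all), the lower call being lost without WT replicate 3. Insr, the insulin receptor, rose by 0.33 ± 0.08. Itpr1, the calcium channel of the ER, had 168, 158 and 158 counts in KO2, 148, 149 and 143 in KO1 and 131, 112 and 111 in WT (0.45 ± 0.06). The related Itpr3 rose by 0.22 ± 0.05, and of 19 calcium store genes 7 were called higher, 4 without KO2 replicate 1, and 1 lower, none without WT replicate 2.

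KO2 differed from KO1 as well as from WT. Directly tested, 1016 genes (9.92%) differed between the lines, 482 higher in KO2 (4.71%) and 534 lower (5.22%), against 109 genes (1.06%) called in KO1 against WT. The number was 521 without KO1 replicate 2 (240 higher, 281 lower) and 618 without KO1 replicate 3 (320 higher, 298 lower), and 308 were higher without KO1 replicate 1. Of the genes called higher in KO2 against WT 379 (33.7%) were also above KO1, and of those called lower 349 (45.4%) were also below it; the contrasts share the KO2 libraries. In KO1 the genes called higher in KO2 had a median of 0.10 over WT, and those called lower −0.060. These genes were chosen against the same WT libraries, so part of the KO1 shift can come from the choice. Among genes called in both contrasts with a mean of at least 25, those farthest above KO1 were Sptb (0.86 ± 0.11), Copz2 (0.72 ± 0.11), Cotl1 (0.65 ± 0.11), the basement membrane collagen Col4a2 (0.57 ± 0.10), the class I antigen gene H2-K1 (0.57 ± 0.09) and Pgm1. H2-K1 had 50.7, 55.4 and 51.8 counts in KO2 libraries, 37.9, 34.98 and 32.7 in KO1 and 42.6, 37.4 and 32.7 in WT. Farthest below KO1 were Ddx3y (−1.07 ± 0.06), Trh (−0.85 ± 0.05), Trpm1 (−0.71 ± 0.10), Ncor1, the membrane protein gene Emp1 (−0.61 ± 0.09) and the bicarbonate transporter gene Slc4a8 (−0.53 ± 0.09). Ddx3y is Y-linked, and 3 other Y-linked genes stood above WT in KO1 with no call in KO2, Eif2s3y at 0.014 in KO2 and 1.01 in KO1, Uty at −0.16 in KO2 and 0.94 in KO1, and Uba1y at −0.18 in KO2 and 1.36 in KO1 (named after their values were seen). Ddx3y had 94.9, 108 and 111 counts in KO2, 229, 212 and 219 in KO1 and 117, 129 and 121 in WT, so that KO1 stood apart, and its call against WT in KO2 (−0.23) was lost without KO2 replicate 1 (−0.16).

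**Figure D5:**
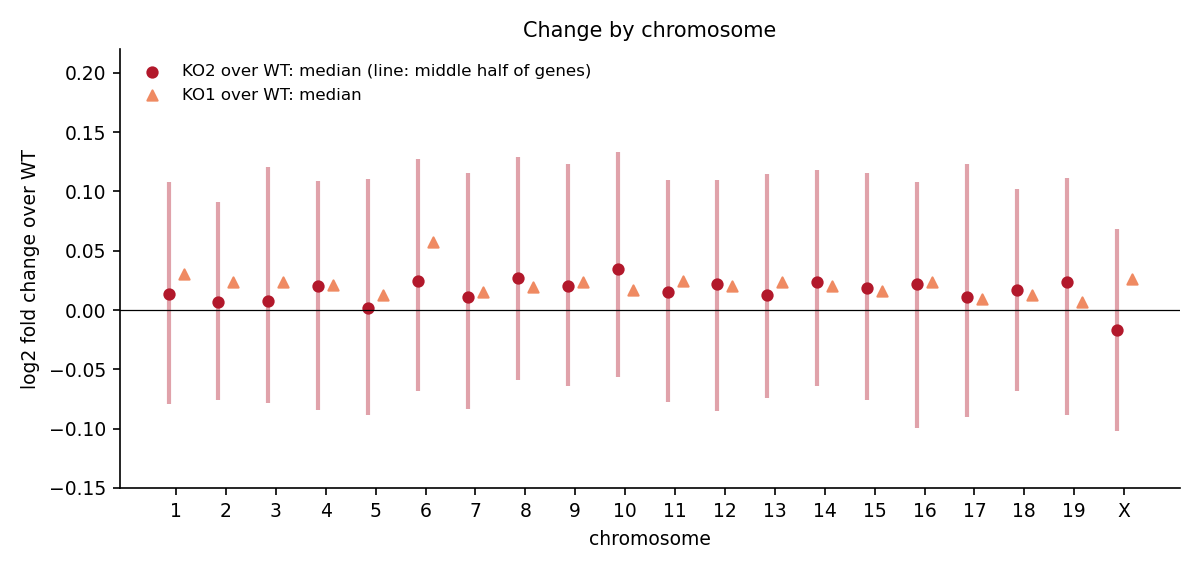
For each chromosome the median log2 fold change over WT of its tested genes is drawn for KO2 (circles, with a line over the middle 50% of genes) and KO1 (triangles). The autosomes lie between 0.0021 and 0.034 in KO2, and X lies below 0 at −0.017.

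No autosome stood out as a block. Over the 19 autosomes the median change in KO2 ran from 0.0021 on chromosome 5 to 0.034 on chromosome 10, and the share of genes called was highest on chromosome 8 (22.7% of 582) and chromosome 6 (21.96% of 469). The X chromosome had the lowest median among the autosomes and X, −0.017 over 310 genes (−0.040 under median-ratio scaling), with 17 higher and 26 lower calls (13.9%). Measured within each library against the WT mean, X minus the autosomes was −0.053, −0.054 and −0.022 in KO2 libraries, 0.00098, 0.020 and −0.0041 in KO1 and −0.014, 0.0059 and 3.2e-05 in WT. Every KO2 library was under every WT library in this measure; permuting the 6 labels exactly, two-sided, gave p = 0.1, which is the floor for 20 assignments.

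Around Kif2a, 4 other tested genes lay within 1 Mb on chromosome 13. Dimt1 (106947127 to 106960224, plus strand), which overlaps the end of Kif2a on the other strand, had 22.8, 26.1 and 28.7 counts in KO2 libraries, 20.7, 23.9 and 25.8 in KO1 and 42.9, 46.2 and 50.9 in WT. Both lines lay below WT without overlap (−0.83 ± 0.10 in KO2, limma adjusted p = 3.8e-08; −0.96 in KO1). Since the genes overlap and it is not given whether reads were counted by strand, reads of Kif2a and Dimt1 may not have been told apart. Ipo11, an importin gene 22.04 kb away, had 205, 194 and 203 counts in KO2 and 222, 226 and 226 in WT (−0.16 ± 0.05, adjusted p = 0.029). Its call ended when KO2 replicate 2 was left out (−0.14) and without WT replicate 2 or 3 (−0.16 each). Zswim6 (0.14 ± 0.13) and Ndufaf2 (0.015 ± 0.10), farther away, were not called. Within 150 kb of 27 of the genes with large changes 120 neighbours that were not themselves among the 27 were tested, and 26 (21.7%) were called, beside 18.5% of all genes. The called neighbours of Ncor1, named after their values were seen, were Specc1 (0.54), 2410006H16Rik (0.46) and Lrrc75a (0.43), all higher, and Pigl (−0.19), which overlaps it. Its neighbours Zswim7, Ttc19, Cenpv and Ubb were not called.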

How the data were processed

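Poly-A RNA of 3 KO2, 3 KO1 and 3 WT libraries was sequenced as paired reads of 50 bases, per the labels. The submitters' processing notes name HISAT2, DESeq2 and GRCm38, with no versions; the counter, annotation and strand setting were not given in the sources used. The authors deposited 1 table of 15526 genes by 9 libraries whose unit is a signal, that is, read counts divided by a factor per library. Whole reads could be recovered from it, since every value was a whole multiple of its column's smallest value (tolerance 0.05). As these values are not counts, the main test was limma 3.58.1 (R 4.3.3) on log2(value + 1), with trend and robust moderation, group means for all 9 libraries and Benjamini-Hochberg adjustment over the 10238 genes with a mean of at least 10. The other 5288 genes were not tested there. The script was tested on simulated data with known changes.

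Alternatives were edgeR 4.0.16, DESeq2 1.42.0 and voom on recovered reads, other scalings, filters and pseudocounts, and each library left out. Positions came from GENCODE M21 (GRCm38), matched by symbol for 99.4% of tested genes, and promoter windows from RefSeq. Named genes were Kif2a and tested genes within 1 Mb, the 15 highest and 15 lowest called genes without overlap and with a mean of at least 25, the 6 highest and 6 lowest with a mean of at least 500, the 6 at each end against KO1, and up to 4 of smallest adjusted p in each list. The members and the 65 lists were chosen with earlier results of these data known. Each depth limits counting error only. Some named genes are not reported here.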

Additional observations from a re-analysis of the deposited data

Results flagged for a closer look

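In these 4 flagged genes KO2 and KO1 moved in opposite directions from WT, with the difference between the lines itself called by limma. They are not the only such genes. Uty and Uba1y, not called in KO2 against WT, stood at −0.16 and −0.18 in KO2 and at 0.94 and 1.36 in KO1. Ddx3y, an RNA helicase gene on the Y chromosome, had 94.9, 108 and 111 counts in KO2 libraries, 229, 212 and 219 in KO1 and 117, 129 and 121 in WT, a KO2 minus KO1 difference of −1.07 (adjusted p = 3e-20). The Y-linked Eif2s3y, Uty and Uba1y were also higher in KO1, with KO2 minus KO1 differences of −0.99 ± 0.06, −1.09 ± 0.10 and −1.54 ± 0.09. Trh, the hormone precursor described above, had a difference of −0.845 (adjusted p = 8e-19). Syne2, which links the nucleus to the cytoskeleton, had 167, 172 and 172 counts in KO2, 228, 231 and 238 in KO1 and 194, 190.2 and 201 in WT, with changes of −0.19 and 0.25 over WT and a difference of −0.447 (adjusted p = 4e-09). Ablim1, an actin-binding protein, had 154, 167 and 159.5 counts in KO2, 215, 217 and 205 in KO1 and 197, 169 and 178 in WT, with changes of −0.18 and 0.23 and a difference of −0.406 (adjusted p = 5.7e-07). Each knockout group is 1 edited line, so a difference between lines cannot be told apart from a difference in the response to the lost gene.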

How the results depend on the processing

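Under TMM scaling, edgeR, limma-voom, median-ratio scaling and quantile normalization the uncalled Ndufaf2 changed sign, to −0.00083, −0.0010, −0.0022, −0.0075 and −0.016, and with 1 library left out it ran from −0.041 to 0.073. Without trend and robust moderation 1151 genes were called, 696 higher and 455 lower, KO2 differed from KO1 at 413 genes (183 higher and 230 lower), 13 genes passed 1.2-fold by treat and 23 lists, in place of 36, had over 25% of members called. With a mean of at least 50 required, 20 genes passed treat, in a smaller table. With 1 library left out, KO2 differed from KO1 at 521 to 1207 genes, 240 to 563 higher and 281 to 644 lower, lower calls against WT ran from 455 to 767, and treat calls from 20 to 42. Among genes of at least 1.5-fold, 30.8% of windows of those called higher held NACGTG, and 0 of those called lower the sterol element. The replicate block gave 1719 calls (1028 higher, 691 lower) and 867 between the lines. Same-numbered KO2 and WT libraries did not deviate together (correlations 0.018, −0.13 and −0.10), and other pairs ran from −0.092 to 0.17. With 3 libraries per group the deviations constrain each other, so this cannot decide whether the numbers mark pairs. Of 232 named genes, 57 lost their call without trend and robust moderation, at most 33 with 1 library left out (WT replicate 3), 7 with the block and none with other pseudocounts. The cause of these losses was not tested. Shallow expression limits small changes: in the lowest 25% of genes by level the median SE was 0.12.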

Other observations

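Genes below the level tested were fitted with no filter on level, and 236 of these 5288 were called, 156 higher and 80 lower (4.46%). The genes named here were chosen after their values were seen. Myc, the growth-promoting transcription factor, averaged 2.96 ± 0.542 counts in KO2 and 6.28 ± 0.903 in WT (SD, n = 3 each; change −0.88 ± 0.21, limma adjusted p = 0.0021). Cdx2, a trophoblast and posterior factor, averaged 1.254 ± 0.765 in KO2 and 3.01 ± 0.308 in WT. Other trophoblast markers moved the other way, Hand1 at 1.18 ± 0.357 in KO2 and 0.289 ± 0.264 in WT (adjusted p = 0.042) and Esx1 at 2.89 ± 1.07 in KO2 and 1.29 ± 0.427 in WT (adjusted p = 0.035). The primitive endoderm marker Dab2 was called lower at −0.65 ± 0.21 (adjusted p = 0.028) and Hnf4a changed by 0.59 ± 0.17 (adjusted p = 0.011). Among genes called higher, Stra8, a gene of entry into meiosis, averaged 6.12 ± 0.785 in KO2 and 2.60 ± 0.777 in WT, and the lysyl oxidase gene Loxl2 7.81 ± 2.01 in KO2 and 3.41 ± 0.728 in WT. Zscan4c, a marker of a transient state of ES cells that resembles cleavage-stage embryos, averaged 2.74 ± 0.24 in KO2 and 0.83 ± 0.181 in WT, and the 11 markers of that state in the table summed to 16.2 to 19.7 counts in KO2 libraries, 17.6 to 20.4 in KO1 and 11.1 to 11.9 in WT. The log2(value + 1) scale understates changes at these levels.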
